A study of Mus musculus with 6 samples.

Results

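Natural killer (NK) cells were examined among the cells sorted from lymph nodes as CD11b hi TOM+. They were chosen by a gate on raw counts of unique molecular identifiers (UMIs, each standing for 1 captured RNA molecule): at least 3 of the 6 genes Ncr1, Klrb1c, Klre1, Gzma, Nkg7 and Prf1 detected, and no UMI of Cd3e, Cd3d or Cd3g. The gate held 420 of 12139 kept cells, with 227 and 36 cells from the 2 unimmunized mice and 128 and 29 cells from the 2 immunized mice.

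All 4 animals were CD169-Tom mice (Cd169Cre/+.Tdtomatofl/fl), in which Cre from the Siglec1 locus switches on tdTomato (TOM) in cells that have used this gene and in their progeny. The immunized mice received hen egg lysozyme (HEL) and were taken at day 9. TOM label therefore marks a history of the locus and not a cell type, and each mouse is told from the others by 1 hashtag antibody. Cells from the 4 mice were pooled and run as 2 captures. Values for the mice are given below in the order unimmunized mouse 1, unimmunized mouse 2, immunized mouse 1 and immunized mouse 2.

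NK cells are innate lymphocytes that kill stressed or infected cells with perforin and granzymes and secrete interferon-gamma and chemokines. They carry activating and inhibitory receptors encoded by the NK gene complex, among them the Ly49 (Klra) family, in place of a rearranged antigen receptor. Mouse NK cells depend on the transcription factors Eomes and T-bet (Tbx21), and maturing NK cells gain CD11b (Itgam), the integrin subunit used in the sort.

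Besides RNA, 6 antibodies were read on each cell by DNA tags, which are shown because the surface readout below rests on counting them. CD169 is the protein of Siglec1, CD68 and F4/80 (Adgre1) mark macrophages, CD11c (Itgax) marks dendritic cells and some NK cells, and Ly-6c and Ly-6g mark monocytes and neutrophils. Each tag is printed as deposited, and no part of it is marked.
CD169: attgacgacagtcat
CD68: ctttctttcacggga
F4/80: ttaacttcagcccgt
CD11c: gttatggacgcttgc
Ly-6c: aagtcgtgaggcatg
Ly-6g: acattgacgcaacta

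The gate genes are given first, as a description without a test, since they chose the cells. Ncr1, the activating receptor NKp46 on chromosome 7 (GRCm38, 4337724 to 4345164, plus strand), was detected in 97.4%, 97.2%, 98.4% and 96.6% of NK-gated cells. Nkg7, a granule membrane protein, was detected in 97.4%, 100%, 100% and 100%. These receptors and granule genes were near complete in every mouse. Klrb1c was detected in 91.6%, 91.7%, 89.8% and 96.6%, where the groups overlap. The other 3 gate genes varied more. Gzma, the granzyme A protease, was detected in 70.5%, 80.6%, 89.8% and 89.7% of NK-gated cells, at 4506, 7157, 8035 and 8119 CPM (UMIs of the gene scaled to a common library total). Prf1, the pore-forming perforin, was detected in 62.1%, 58.3%, 85.2% and 79.3%. Klre1, a lectin-like receptor, was detected in 74.9%, 83.3%, 91.4% and 96.6%. For these 3 genes both immunized mice lay above both unimmunized mice in the share of cells, which is a description of values the gate used and from which nothing is read.

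How many of the 6 genes a cell showed divided the gate. All 6 were found in 228 cells, 5 in 99, 4 in 35 and exactly 3 in 58. Cells with exactly 3 mostly held Ncr1 (94.8%), Nkg7 (94.8%) and Klrb1c (87.9%), the last encoding NK1.1, whereas Gzma was found in 5.17% of them and Klre1 and Prf1 in 8.62% each. Their median depth was 5959 UMIs, against 5524 in cells with all 6 genes. These medians pool mice in different mixtures, and the part of depth was not tested.

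Genes outside the gate went with this number. Il7r, the interleukin-7 receptor that NK cells lose with maturation, had a UMI in 93.1% of cells with 3 gate genes, 65.7% with 4, 30.3% with 5 and 13.6% with 6. Cxcr6, a chemokine receptor of tissue-resident lymphocytes, fell along the same order from 72.4% to 4.82%. Eomes ran the other way, with a UMI in 5.17%, 31.4%, 49.5% and 60.5% of these cells. Gzmb, the granzyme B protease, went from 6.90% to 76.3%, and the Ly49 gene Klra8 from 1.72% to 39.5%. Il2rb, a receptor chain for interleukin-2 and interleukin-15, differed little along this order (94.8% and 93.9% at its ends). These shares are descriptions over cells of 4 mice, and since the gate used the same cells no test was made.

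**Figure D1:**
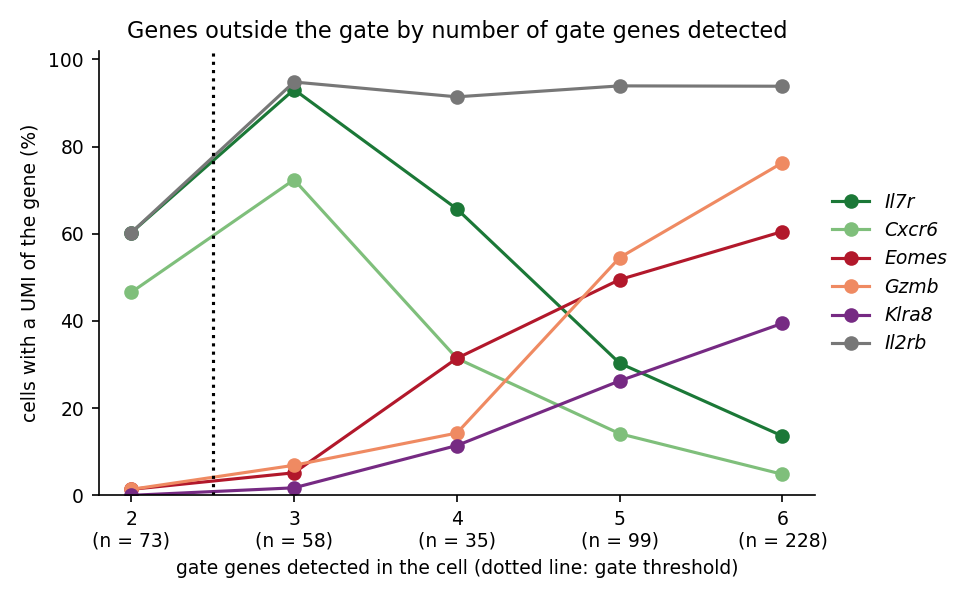
Share of cells (%) with at least 1 UMI of 6 genes outside the gate, by the number of gate genes detected in the cell, for cells without a Cd3 UMI pooled over the 4 mice; the dotted line is the gate threshold. Il7r and Cxcr6 are most frequent at 3 gate genes (93.1% and 72.4%), while Eomes, Gzmb and Klra8 are most frequent at 6 (60.5%, 76.3% and 39.5%).

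The 93 cells with 3 or 4 gate genes held Il7r at 1120 CPM and Cxcr6 at 224 CPM, against 107 and 32.6 CPM in the 327 cells with 5 or 6. Ltb (lymphotoxin beta) stood at 740 against 246 CPM, Itga1 (CD49a) at 75.6 against 19.0, Inpp4b at 112 against 14.5 and Tnfsf10 (TRAIL) at 75.6 against 16.7. These genes come from a list of innate lymphoid cell (ILC) 1 genes, a lineage related to NK cells. In the same order Klrg1 and S1pr5, 2 genes of mature NK cells, stood at 0 against 70.1 and at 3.29 against 75.8 CPM, and Itgam at 32.9 against 123. Tbx21 was close in both, at 88.8 and 91.7 CPM. Trac, the T cell receptor alpha constant gene, was at 3.29 and 3.53 CPM. Other T cell receptor genes were higher in the cells with 3 or 4 gate genes, with Trbc2 at 409 against 228 CPM and Tcrg-C1 at 14.8 against 2.64 CPM. These are sums over mice in different mixtures, since 72 of the 93 cells came from unimmunized mouse 1 against 155 of the 327. Within each mouse Il7r and Cxcr6 were higher and Eomes and Gzmb lower in the cells with 3 or 4 gate genes, while Ltb was at 229 against 274 CPM in immunized mouse 2, whose 3 such cells go the other way. No cell type name is given to the cells with 3 or 4 gate genes, which were singled out after their values were seen.

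Just outside the threshold, 73 cells without a Cd3 UMI held exactly 2 gate genes. They had a median of 8419 UMIs and 31 UMIs of 7 myeloid genes, against 5959 and 12.5 in the cells with exactly 3. Lyz2 (lysozyme) stood at 13323 CPM in the cells just outside and 1879 CPM in those just inside, and Ncr1 at 165 and 676 CPM. Eomes had a UMI in 1.37% of the cells just outside and 5.17% of those just inside. A further 83 cells passed the 3-gene threshold and were left out for a Cd3 UMI.

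The label was then checked on 8 markers outside the gate (Eomes, Tbx21, Klrk1, Klrd1, Il2rb, Klra4, Klra8 and Klrg1), with UMIs summed per mouse. Eomes, on chromosome 9 (GRCm38, 118478212 to 118486132, plus strand), was at 126, 151, 143 and 153 CPM in NK-gated cells and at 3.39, 3.05, 0.393 and 0.502 CPM in all other kept cells. Klrd1 (CD94), the partner of the NKG2 receptors, was at 913, 1452, 1351 and 1555 CPM against 66.2, 82.1, 38.7 and 12.2 CPM. Klrk1 (NKG2D) was at 928, 1136, 1008 and 930.5 CPM against 107, 124, 62.3 and 109 CPM. None of these groups overlapped. Described by these levels, the gate as a whole did not go against its label. The 8 markers were chosen with results of these data known, and those near 0 in the other cells, such as Eomes and Klra8, entered the fit described next through the NK-gated libraries, so their calls there add no support.

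The comparison with all other kept cells was fitted with edgeR's quasi-likelihood test on the 8 libraries of NK-gated and other cells. Because the gate itself set these classes apart, a gene that follows the 6 gate genes from cell to cell may be called for that reason, and the counts are a description of the class. A gene near 0 in the other cells passed the filter on low counts through the NK-gated libraries and was bound to be higher, so the counts and medians of the lists of NK genes below describe the members tested and are not support for the class. Of 10870 genes outside the gate, 1268 were higher and 1639 lower in NK-gated cells at an adjusted p of at most 0.05, together 26.7% of those tested (11.7% higher and 15.1% lower). In the fit against Cd3-positive cells (at least 2 Cd3 UMIs, 1388 cells), which uses the same NK-gated libraries, 719 of 8556 genes were higher and 750 lower, together 17.2%.

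Ly49 receptors, which recognize class I molecules on other cells, were near 0 in the other cells for most members. Of 12 listed genes 8 passed the filter on low counts, most of them through the NK-gated libraries. Of these 7 were higher and 1 lower, against 11.7% and 15.1% of all genes, which is a description. Klra8 (Ly49H), on chromosome 6 (GRCm38, 130115226 to 130129898, minus strand), was at 145, 89.6, 292 and 292 CPM in NK-gated cells and between 0.0524 and 3.33 CPM in the others (log2 fold change 8.37 ± 0.32, SE, n = 4 mice, edgeR adjusted p = 6.9e-07). Klra9 was at 244, 344, 348 and 227 CPM (7.95 ± 0.48, adjusted p = 1.5e-05), and Klra4 (Ly49D) at 113, 23.6, 266 and 190 CPM (7.35 ± 0.72, adjusted p = 0.00018). Klra4 had its lowest value in unimmunized mouse 2, a library of 36 cells. The lower member was Klra2, at 41.0, 33.0, 29.3 and 88.0 CPM against 62.8, 78.2, 163 and 314 CPM. Klra genes are near-identical copies, so reads may have been shared or lost between them in the counting.

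Other receptors followed. Of 20 listed NK receptors outside the gate 18 were tested, and 14 were higher and none lower, against 11.7% and 15.1% of all genes (median 3.00). Klrc1 (NKG2A), an inhibitory receptor, was at 366, 419.6, 378 and 431 CPM against 9.38, 3.88, 1.49 and 0.988 CPM (6.90 ± 0.25, adjusted p = 5.2e-07). Klrc2 (NKG2C), its activating relative, was at 325, 453, 411 and 315 CPM (6.96 ± 0.32, adjusted p = 2.6e-06). Klrb1a and Klrg1 were also higher, by 6.54 and 6.55. Both classes of receptor, activating and inhibitory, were thus present in all 4 mice.

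Among adaptors and kinases of signalling, 8 of 16 tested were higher and 3 lower than in other cells, against 11.7% and 15.1% of all genes (median 0.72). Sh2d1a (SAP) was higher by 3.74 and Lck, a kinase shared with T cells, by 3.33. Tyrobp (DAP12) and Fcer1g, used by NK and myeloid receptors alike, did not pass against other cells (0.29 ± 0.13 and 0.03 ± 0.12) and were higher than in Cd3-positive cells (2.32 ± 0.09 and 1.97 ± 0.09, adjusted p = 1.6e-12 and 1.4e-11). Of 16 granule genes tested outside the gate, 9 were higher and 2 lower, against 11.7% and 15.1% of all genes (median 1.49). Gzmb, on chromosome 14 (GRCm38, 56258838 to 56262260, minus strand), was at 427, 471, 450 and 417 CPM against 6.16, 5.82, 2.44 and 1.60 CPM (6.85 ± 0.17, adjusted p = 1.0e-07). Fasl, a death receptor ligand, was at 53.8, 56.6, 99.1 and 88.0 CPM (6.18 ± 0.18, adjusted p = 1.4e-07).

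Of 10 cytokine and chemokine genes tested, 6 were higher and none lower, against 11.7% and 15.1% of all genes (median 2.73). Xcl1, a chemokine for cross-presenting dendritic cells, was at 925, 561, 481 and 546 CPM against 29.8, 17.5, 1.99 and 1.44 CPM (6.46 ± 0.25, adjusted p = 6.9e-07). Ifng was at 53.8, 66.0, 49.5 and 18.5 CPM (5.43 ± 0.39, adjusted p = 4.2e-05). Ccl4, a chemokine, was higher by 4.31 ± 0.32, and Ccl5 by 3.44 ± 0.32 at 6876, 12301, 12720 and 17105 CPM. In all 4 mice Xcl1, Ifng, Ccl4 and Ccl5 stood above their levels in the other cells.

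Of 19 transcription factor genes tested 13 were higher and 1 lower, against 11.7% and 15.1% of all genes (median 1.83), with Eomes (6.70 ± 0.16, adjusted p = 8.8e-08) and Tbx21 (5.11 ± 0.34, adjusted p = 2.6e-05). Among 16 cytokine receptors 4 were higher and 4 lower, against 11.7% and 15.1% of all genes, with Il2rb at 711, 637, 516 and 593 CPM (5.11 ± 0.36) and Il18rap, a chain of the interleukin-18 receptor, higher by 4.39 ± 0.12. Of 20 integrins and homing receptors 13 were higher and 3 lower, against the same shares. Itga2 (CD49b), the antigen of the NK antibody DX5, was higher by 6.08 ± 0.26. Of the 8 genes with the widest rises, 6 belonged to the Klra and Klrc families and the others were Gzmb and Samd3.

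**Figure D2:**
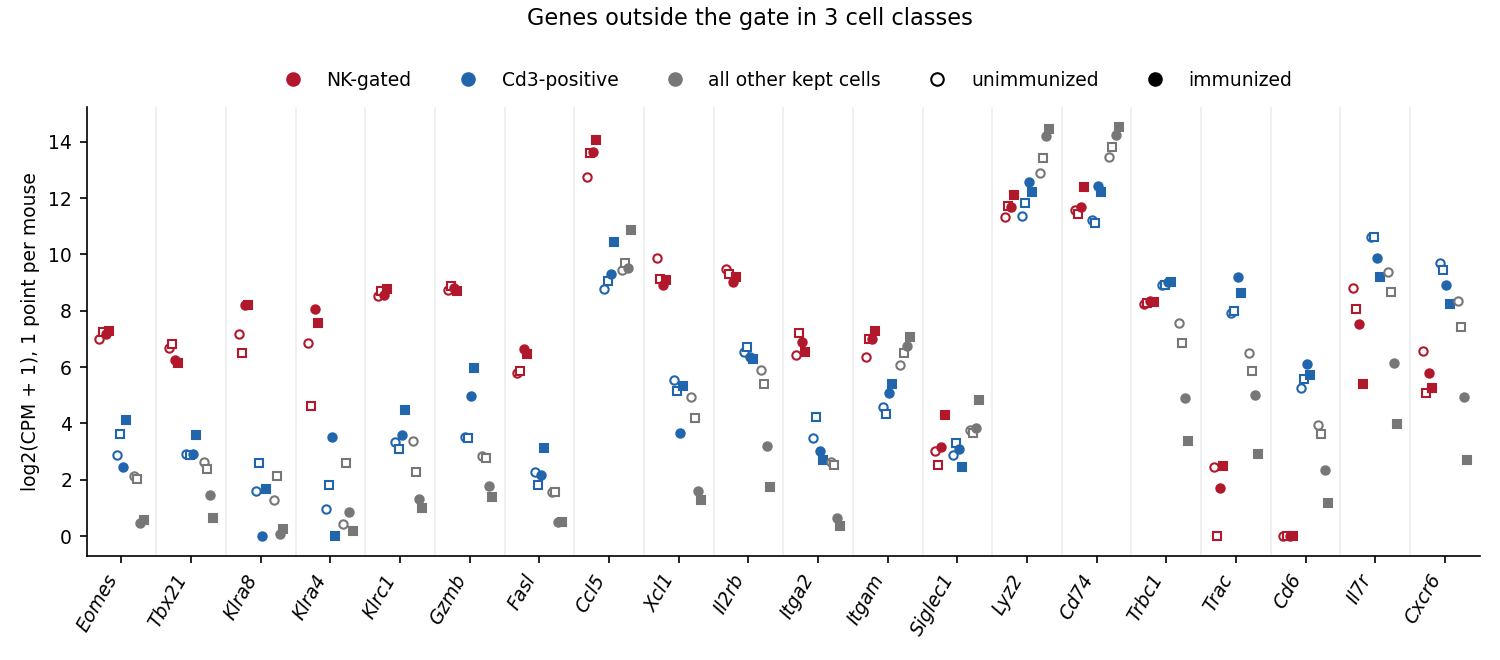
Expression on the log2(CPM + 1) scale (vertical axis) of 20 genes outside the gate (horizontal axis), with 1 point per mouse for NK-gated cells, Cd3-positive cells and all other kept cells; open points are unimmunized and filled points immunized mice. NK-gated cells stand apart for Eomes to Itga2, lie with the other cells for Itgam and with Cd3-positive cells for Lyz2 and Cd74, and hold no UMI of Cd6.

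T cell genes were lower in NK-gated than in Cd3-positive cells. The classes were defined by Cd3 UMIs, so genes that go with the Cd3 genes from cell to cell were bound to differ, and the counts describe the classes. Of 10 alpha-beta T cell markers 8 were lower than in Cd3-positive cells and none higher (median -4.22, against -0.03 over all genes tested, of which 8.77% were lower and 8.4% higher), and of 10 gamma-delta T cell markers 8 were lower, against the same share. Trac was at 4.49, 0, 2.25 and 4.63 CPM against 240, 253, 584 and 392 CPM. Cd5 and Cd6, co-receptors of T cells, had no UMI among the 2876898 UMIs of NK-gated cells. Taking 3 counts over all NK-gated cells as the limit of a count of 0, Cd5 was at least 36.5-fold lower and Cd6 at least 43.3-fold lower than in Cd3-positive cells, where they had 386 and 458 UMIs. Sit1, Themis, Cd40lg, Izumo1r, Ramp3, Trgv2 and Sox13 also had no UMI, so their differences are known only as bounds and are not ranked.

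Not every T cell transcript was missing. Trbc1 was at 302, 306, 325 and 319 CPM in NK-gated cells against 475, 483, 515 and 516 CPM in Cd3-positive cells (-0.66 ± 0.09, adjusted p = 3.3e-05), and was higher than in all other cells (2.41 ± 0.32). Lck, at 224, 255, 233 and 273 CPM, did not pass the test against Cd3-positive cells. Lat, an adaptor of the T cell receptor, was at 41.6, 33.0, 54.1 and 60.2 CPM against 297, 328, 275 and 241 CPM. Lat was thus lower in all 4 mice (-2.58 ± 0.13, adjusted p = 7.0e-11). On the other side, Cma1 (mast cell protease 5) was higher than in Cd3-positive cells by 7.46 ± 0.50, S1pr5, which lets NK cells leave lymph nodes, by 5.75 ± 0.36, and Styk1 and Adamts14 by 5.87 and 6.28. Of 13 maturation genes tested 11 were higher and 2 lower than in Cd3-positive cells, against 8.4% and 8.77% of all genes (median 1.90).

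The genes of the sort were examined next. Itgam, which encodes CD11b, was at 80.7, 127, 127 and 153 CPM in NK-gated cells, 66.5, 89.9, 108 and 135 CPM in the other cells, and 22.6, 19.0, 33.1 and 40.9 CPM in Cd3-positive cells. NK-gated cells did not pass against the others (0.09 ± 0.19, adjusted p = 0.77) and were higher than Cd3-positive cells (1.99 ± 0.17, adjusted p = 6.7e-08). After each cell was thinned to 1000 UMIs, which left out no NK-gated cell, Itgam had a UMI in 9.69%, 13.9%, 7.81% and 13.8% of NK-gated cells. Before thinning it was found in 33.5%, 38.9%, 44.5% and 48.3%.

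The transcript of the label was almost unseen. Tomato had 1 UMI in 1 of 420 NK-gated cells, a share of 0.238% (exact 95% binomial interval 0.00603% to 1.32%). It was found in 1.30% of Cd3-positive cells (0.770% to 2.04%) and 5.06% of all other kept cells (4.67% to 5.47%), whose median depths were 6313 and 10129 UMIs against 5698 in NK-gated cells. These shares pool mice in different mixtures. By mouse, Tomato was found in 0%, 0%, 0.781% and 0% of NK-gated cells and in 2.19%, 1.80%, 4.56% and 7.42% of the other cells, and in cells thinned to 1000 UMIs in 0% of NK-gated cells of every mouse and in 0.232%, 0.200%, 0.408% and 0.703% of the other cells. Siglec1 was at 7.05, 4.71, 7.88 and 18.5 CPM in NK-gated cells and at 6.36, 8.85, 7.52 and 4.42 CPM in Cd3-positive cells. Thinned to 1000 UMIs, Siglec1 had a UMI in 0.881%, 0%, 2.34% and 0% of NK-gated cells. These levels rest on 11, 1, 7 and 4 UMIs, and in 3 of the 4 mice they differed from Cd3-positive cells by less than in immunized mouse 2. In the fit against all other cells Siglec1 did not pass (-1.04 ± 0.40, adjusted p = 0.089).

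The CD169 antibody gave another picture. Its median count per NK-gated cell was 58, 45.5, 32 and 28, against 41, 22, 4 and 3 in all other kept cells and 55, 49.5, 23 and 4 in Cd3-positive cells. NK-gated cells lay above the other cells in 4 of 4 mice, with wider gaps in the immunized mice. As a centred log ratio (the natural log of a count plus 1, less the mean over the 6 antibodies of the cell), the difference was 1.07 ± 0.427 (SD, n = 4 mice, exact sign-flip test, p = 0.125, which is as low as 4 mice can reach, and 0.125 adjusted over the 6 antibodies). Against Cd3-positive cells the difference was 0.336 ± 0.342, higher in 4 of 4 mice, and 0.186 without immunized mouse 2. On the scale of log2 of the mean count plus 1 it was higher in 3 of 4 mice, and in unimmunized mouse 2 the mean count was 50.4 in NK-gated and 54.2 in Cd3-positive cells. The Spearman correlation of the CD169 count with UMIs of 7 myeloid genes over NK-gated cells of a mouse was 0.502, 0.153, 0.564 and 0.0398. With all UMIs of the cell the correlation was 0.403, -0.0534, 0.625 and 0.0222. Both are descriptions over cells of 1 library each. In NK-gated cells with fewer than 20 UMIs of the 7 myeloid genes the median CD169 count was 52.5, 45, 26 and 28.5.

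**Figure D3:**
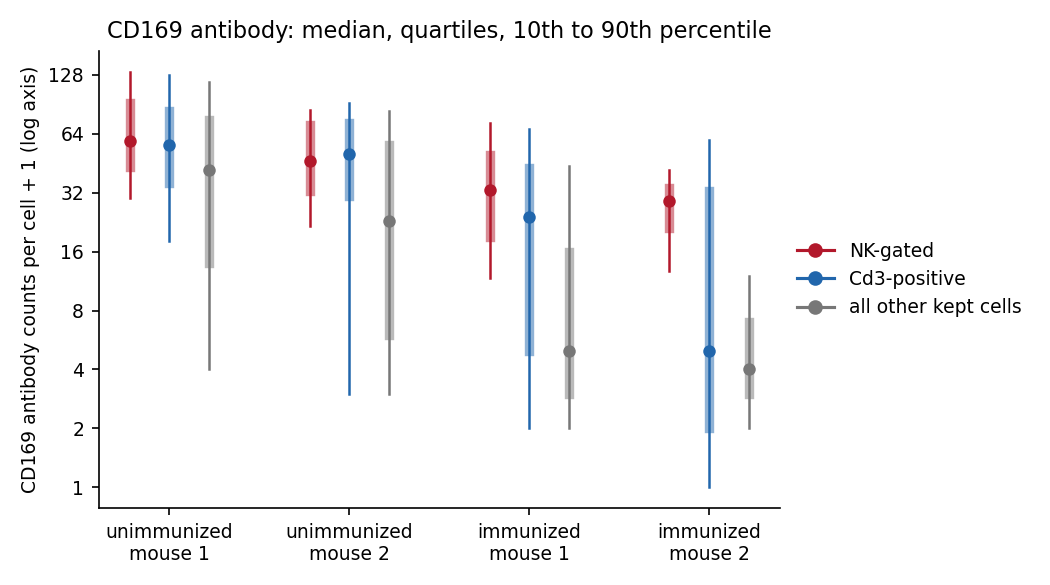
CD169 antibody counts per cell plus 1 (log axis) in NK-gated, Cd3-positive and all other kept cells of each mouse; points are medians, thick bars quartiles and thin bars the 10th to 90th percentiles. The median in NK-gated cells lies between 28 and 58 counts in all mice, while that of the other cells falls to 4 and 3 in the immunized mice.

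The other antibodies went both ways. Ly-6c was lower on NK-gated than on other cells in 4 of 4 mice (-0.634 ± 0.415), as was F4/80 (-0.509 ± 0.244), while CD68 was higher in 4 of 4 (0.322 ± 0.299). Without immunized mouse 2 the CD68 difference was 0.185 and that of CD11c -0.102. CD11c was lower than on other cells in 4 of 4 mice (-0.168 ± 0.155) and higher than on Cd3-positive cells in 4 of 4 (0.155 ± 0.0325). Ly-6g differed by -0.0815 ± 0.0381. Each had p = 0.125 against the other cells, by the exact sign-flip test. On the scale of log2 of the mean count plus 1, which is not centred, CD68 was higher in 2 and Ly-6g in 1 of 4 mice. Ly-6c, F4/80 and CD11c were lower in 4 of 4 on that scale.

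RNA of myeloid cells was present in the gate. The 15 macrophage markers summed to 972, 797, 872 and 495 CPM in NK-gated cells, against a mean over mice of 2828 CPM in the other cells and 755 CPM in Cd3-positive cells, with Apoe the gene of most UMIs and none of the 15 at 0. The 10 monocyte markers summed to 3789, 4588, 4597 and 5745 CPM, most of it Lyz2. The 13 dendritic cell markers, led by Cd74, summed to 7605, 7431, 8014 and 12846 CPM. Ltf, Lcn2 and Ly6g among 10 neutrophil markers and Pax5 among 10 B cell markers had no UMI, and those lists summed to a mean of 32.1 and 172 CPM. Of the macrophage markers tested, 11 of 14 were lower than in other cells, against 15.1% of all genes, and 0 of 11 passed against Cd3-positive cells, where 17.2% of all genes were called and edgeR gave 3 at an unadjusted p under 0.05. Lyz2 was lower than in other cells by 2.19 ± 0.17, and against Cd3-positive cells the difference was -0.29 ± 0.13 (adjusted p = 0.15).

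At least 20 UMIs of 7 myeloid genes were found in 108 NK-gated cells, or 26.0%, 25%, 25.8% and 24.1% of the cells of each mouse. Those cells had a median of 8011 UMIs, against 5085 in the rest. Cell pairs from different mice were removed through their hashtags, and no caller was run for pairs within 1 mouse. The part of such pairs in this RNA was not tested.

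Sequence around the start sites was read for the genes that chose or led the class, since Runx3 and T-box factors act in NK cells. All 6 gate genes and the 8 widest rises had a promoter in the RefSeq table (GRCm38.p6, 250 bases before to 50 after the start, first entry of each gene). The letters TGTGGTT, on either strand, were found for 3 of the 6 gate genes (Klre1, Ncr1 and Gzma) and for 1 of the 8 widest rises (Gzmb), and in 5.37% of the 27025 promoters of the table. The letters TCACAC of the T-box core, which do not overlap with it, were found for 3 of 6 (Klre1, Ncr1 and Nkg7) and 2 of 8 (Samd3 and Gzmb), against 14.4% of all promoters. No Klra or Klrc promoter among the 8 held either. A match is a description of letters and not of binding. Capitals mark TGTGGTT in the promoters of Ncr1 (chr7:4337465-4337764, plus strand) and Gzmb (chr14:56262285-56262584, minus strand). The RefSeq start used for Gzmb lies upstream of the GENCODE gene start given above.
Ncr1: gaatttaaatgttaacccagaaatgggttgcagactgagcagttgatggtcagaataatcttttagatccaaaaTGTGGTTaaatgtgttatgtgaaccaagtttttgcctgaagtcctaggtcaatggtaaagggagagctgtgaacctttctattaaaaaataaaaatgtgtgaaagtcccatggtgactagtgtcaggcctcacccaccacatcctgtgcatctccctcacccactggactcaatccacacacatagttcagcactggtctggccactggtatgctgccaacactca
Gzmb: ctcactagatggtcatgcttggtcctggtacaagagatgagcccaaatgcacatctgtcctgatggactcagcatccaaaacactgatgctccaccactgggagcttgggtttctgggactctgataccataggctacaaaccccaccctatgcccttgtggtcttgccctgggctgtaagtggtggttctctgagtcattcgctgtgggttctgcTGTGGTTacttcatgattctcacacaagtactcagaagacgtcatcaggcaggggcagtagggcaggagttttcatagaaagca

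Immunized and unimmunized mice were then compared. NK-gated cells made up 8.03% (exact 95% binomial interval 7.05% to 9.09%), 6.70% (4.74% to 9.16%), 3.16% (2.64% to 3.74%) and 0.614% (0.412% to 0.881%) of kept cells. Both immunized mice lay below both unimmunized mice, with a mean of 1.89 ± 1.80% against 7.37 ± 0.935% (SD, n = 2 mice each, exact permutation test, two-sided, p = 0.333, the smallest that 2 against 2 allows). The intervals cover counting error only. A share depends on the other cells of the sort. Of NK-gated and Cd3-positive cells together, NK-gated cells made up 19.6%, 23.1%, 35.9% and 21.3%, where the groups overlap.

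**Figure D4:**
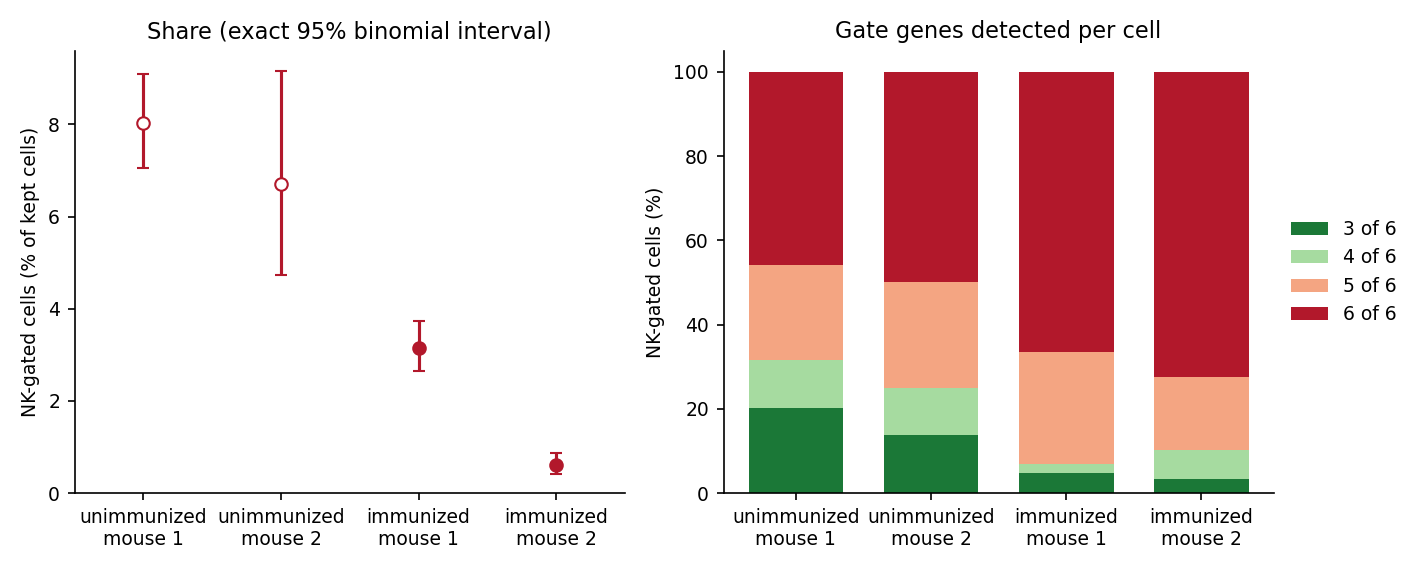
Left, NK-gated cells as a share of kept cells (%) in each mouse, with exact 95% binomial intervals; right, share (%) of the NK-gated cells of each mouse with 3, 4, 5 or 6 gate genes detected. The share falls from 8.03% and 6.70% in the unimmunized to 3.16% and 0.614% in the immunized mice, where cells with all 6 genes make up 66.4% and 72.4%.

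The make-up of the gate differed as well. Cells with exactly 3 gate genes made up 20.3% and 13.9% of NK-gated cells in the unimmunized mice and 4.69% and 3.45% in the immunized mice, and cells with all 6 made up 45.8%, 50%, 66.4% and 72.4%. No test is given, as these numbers come from the gate genes. Of the 58 cells with exactly 3 gate genes, 46 came from unimmunized mouse 1.

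Across genes outside the gate, edgeR called 0 of 10870 between immunized and unimmunized NK-gated cells (0% called), with 631 at an unadjusted p under 0.05. DESeq2 also called 0, with 385 at an unadjusted p under 0.05. The comparison rests on 2 mice per group and on libraries of 212090 to 1560749 UMIs. Groups of mice did not overlap for many genes by their order alone: both immunized mice were higher for 12.8% of the genes and both were lower for 22.1%.

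None of the 16 granule genes tested outside the gate passed between the conditions. Gzma and Prf1, described above, are gate genes and were not tested. Gzmb, at 427, 471, 450 and 417 CPM, had a log2 fold change of 0.04 ± 0.20. Eomes, given above, had one of 0.20 ± 0.19. Fasl, at 53.8, 56.6, 99.1 and 88.0 CPM, had one of 0.88 ± 0.22 (unadjusted p = 0.00356, adjusted p = 0.81), and did not overlap between the groups.

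Ly49 receptors had a median log2 fold change of 0.75 against -0.01 over all genes tested, and 4 of 8 (Klra3, Klra4, Klra5 and Klra8) were higher in both immunized mice, against 12.8% of all genes. In capture 1 alone the Klra4 difference turned to -0.14. Klra8, with 145 and 89.6 CPM in the unimmunized and 292 and 292 CPM in the immunized mice, differed by 1.29 ± 0.34 (adjusted p = 0.81). In cells thinned to 1000 UMIs Klra8 was found in 9.17 ± 5.11% of NK-gated cells of unimmunized and 17.8 ± 5.71% of immunized mice (SD, n = 2), and unthinned in 22.8% and 34.1%. None of the 8 passed the test. The share of cells with all 6 gate genes, among which Klra8 was most frequent, was higher in the same mice. Within the cells with 5 or 6 gate genes Klra8 was at 196, 116, 312 and 332 CPM, and Klra4 at 151, 30.5, 284 and 216 CPM. Klra8 had a UMI in 31.0%, 29.6%, 43.7% and 30.8% of these cells, and Klra4 in 16.8%, 7.41%, 22.7% and 15.4%. In these shares the groups overlap for both genes. The Klra4 values of unimmunized mouse 2 and immunized mouse 2 there rest on 2 and 4 cells. The part of the gate's make-up in the Ly49 values was not tested.

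ILC1 genes went the other way, with a median of -0.66 and 7 of 13 tested lower in both immunized mice, against 22.1% of all genes. Il7r was at 447, 264, 182 and 41.7 CPM (-1.41 ± 0.75, adjusted p = 0.83). Within the cells with 5 or 6 gate genes Il7r was at 178, 67.0, 42.2 and 21.1 CPM. It had a UMI in 24.5%, 11.1%, 13.4% and 15.4% of them, where the groups overlap. The values of unimmunized mouse 2 and immunized mouse 2 there rest on 11 and 4 UMIs. Within the cells with 3 or 4 gate genes Il7r was at 1059, 938, 2185 and 191 CPM, the last value from 3 cells. Inpp4b was at 53.2, 33.0, 10.1 and 9.26 CPM (-2.17, adjusted p = 0.81). None of the 13 passed, and the share of cells with few gate genes moved in the same direction as these values. Its part in them was not tested.

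**Figure D5:**
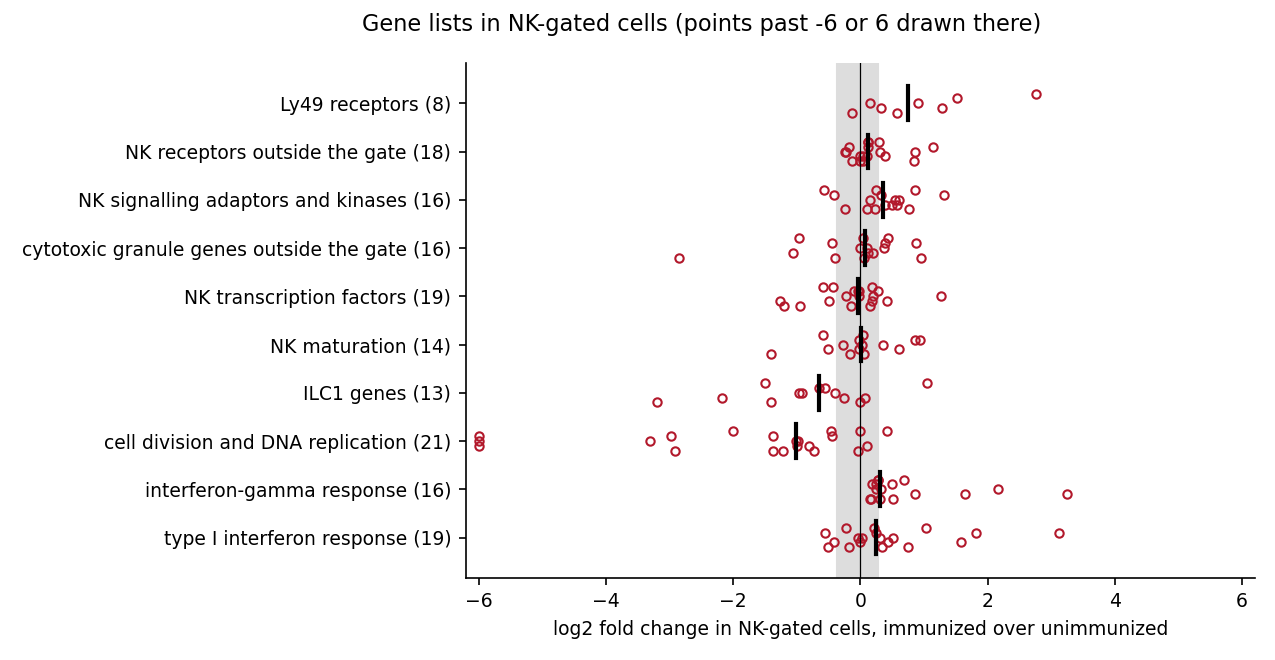
Log2 fold change between immunized and unimmunized mice in NK-gated cells (horizontal axis) for the tested members of 10 gene lists, with the number tested in brackets; points are genes, black bars list medians, and the grey band holds the middle 50% of all 10870 genes (-0.36 to 0.28). Ly49 receptors have a median of 0.75, ILC1 genes of -0.66 and cell division genes of -1.02, and no gene passed the test.

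Cell division and DNA replication genes had a median of -1.02, and 14 of 21 tested were lower in both immunized mice, against 22.1% of all genes. Mcm5, a helicase subunit of DNA replication, was at 40.4, 37.7, 14.6 and 13.9 CPM (-1.37 ± 0.37, adjusted p = 0.81), and Mcm3 at 39.1, 37.7, 16.9 and 23.1 CPM (-0.98). Several of these genes had few UMIs, such as Top2a at 26.9, 14.1, 10.1 and 13.9 CPM. None passed the test.

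Signalling adaptors and kinases had a median of 0.36, with 9 of 16 tested higher in both immunized mice, against 12.8% of all genes. Another 3 were lower in both, against 22.1%. Interferon-gamma response genes had a median of 0.31, with 7 of 16 higher in both immunized mice, against 12.8% of all genes. Cxcl10 stood at 50.6, 18.9, 115 and 750 CPM, with the highest value in immunized mouse 2, a library of 29 cells (3.25, adjusted p = 0.81). In the other kept cells Cxcl10 was at 74.96, 125, 266 and 420 CPM. Lists of myeloid markers differed in direction in the gate. The 10 monocyte markers had a median of 0.44, with 8 above 0, 3 higher in both immunized mice, against 12.8% of all genes, and 1 (Ly6c2) lower in both, against 22.1%. Cd74, of class II antigen presentation, was at 3070, 2763, 3263 and 5361 CPM (0.63 ± 0.24, adjusted p = 0.81), and H2-Aa and H2-Ab1 were also higher in both immunized mice (0.69 and 0.78). Cst3, another dendritic cell marker, was at 961, 787, 452 and 486 CPM (-0.84), and Clec9a was also lower in both (-2.12). The dendritic cell list as a whole had a median of -0.79, the neutrophil list of -0.51 and the macrophage list of -0.16. The part of myeloid RNA in the signalling and interferon-gamma response values was not tested. Type I interferon response genes had a median of 0.25, and NK transcription factors of -0.03 with 8 of 19 lower in both immunized mice, against 22.1% of all genes, among them Tcf7 at 154, 108, 66.4 and 69.4 CPM. None of these lists held a gene that passed.

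Whether the response differed between NK-gated and other cells was tested by the interaction term of the same fit. Of 10870 genes 7 were called (0.0644%), each with a higher difference in NK-gated cells. With the mouse as a block, which is the pairing the design gives, 364 were called, 260 higher and 104 lower. Eomes changed from a mean of 139 to 148 CPM in NK-gated cells and was at 3.39, 3.05, 0.393 and 0.502 CPM in the other cells (interaction 2.81 ± 0.30, edgeR adjusted p = 0.020). Eomes passed the filter on low counts through the NK-gated libraries. Its term rests on few counts in the other cells and is a description, from which no support is drawn. The other cells include the 83 cells that passed the 3-gene threshold and held a Cd3 UMI. Those 83 cells, 49, 10, 15 and 9 per mouse, held 36, 6, 8 and 11 of the 59, 11, 15 and 31 Eomes UMIs of the other cells, or 52.6% in all. Without them Eomes in the other cells was at 1.36, 1.41, 0.184 and 0.324 CPM. They also held 65.6% of the Samd3, 54.3% of the Styk1, 49.7% of the Xcl1, 39.0% of the Fasl, 21.3% of the Ctla2a and 9.96% of the Il18rap UMIs of the other cells, and their part in the interaction was not tested. Fasl, Xcl1, Samd3, Styk1, Ctla2a and Il18rap had the same shape, being lower in the other cells of both immunized mice. In those cells Xcl1 was at 29.8, 17.5, 1.99 and 1.44 CPM while in NK-gated cells it was at 925, 561, 481 and 546 CPM. The share of Cd3-positive cells among all kept cells also differed between these mice, with 932, 120, 229 and 107 cells of 2828, 537, 4052 and 4722, and its part in these values was not tested.

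The same term against Cd3-positive cells, examined after the other had been seen, called 7 of 8556 genes (0.0818%), 1 higher and 6 lower in NK-gated cells, and 8 higher and 40 lower with the mouse as a block. Both terms share the NK-gated libraries. Gzmb was among the 6 lower (-2.08 ± 0.35, edgeR adjusted p = 0.038): it was at 427, 471, 450 and 417 CPM in NK-gated cells and at 10.5, 10.1, 30.6 and 60.8 CPM in Cd3-positive cells. Inpp4b, at 42.2, 45.5, 63.7 and 67.4 CPM in Cd3-positive cells, was higher there and lower in NK-gated cells of both immunized mice (-2.94 ± 0.42, adjusted p = 0.010). Camk2n1 was the 1 higher gene (2.69 ± 0.39, adjusted p = 0.010).

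CD169 antibody on NK-gated cells was lower in both immunized mice. The mean centred log ratio was 1.39 in unimmunized and 0.956 in immunized mice, a difference of -0.432 (exact permutation test, p = 0.333, adjusted p = 1 over 6 antibodies). The gap to the other cells was 0.732 in unimmunized and 1.41 in immunized mice (p = 0.333, exact permutation test). The hashtag counts of NK-gated cells, with medians of 1052, 951.5, 593 and 421, were lower in the same mice, and their part in the antibody values was not tested.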

How the data were processed

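The authors aligned reads to mm10 with Cell Ranger 4.0.0 (submitters' processing notes) and deposited whole UMI counts per gene and barcode, and tag counts for hashtags and antibodies made with CITE-seq-count. They were used as deposited. Of 18662 barcodes, 1242 were left out because 621 sequences occurred in both captures. Kept cells had at most 25% mitochondrial UMIs and 1 hashtag with at least 80% of hashtag counts and at least 10 counts. UMIs were summed per mouse and class and fitted with edgeR 4.0.16 (R 4.3.3, TMM, filterByExpr, quasi-likelihood test, Benjamini-Hochberg adjustment), with gate genes left out of all counts. DESeq2 1.42.0 was an alternative. Library totals were 212090 to 1560749 UMIs for NK-gated cells. The edgeR fit was also run on simulated counts with known changes. Libraries were drawn there as independent, so that run cannot speak to the shared mouse. NK-gated and other libraries of a mouse come from the same animal, and their differences between mice correlated at 0.106 (unimmunized) and 0.19 (immunized) over genes. The mice are separate animals, and the exact tests used a value per mouse. The main edgeR fits had no mouse block and treated the libraries of a mouse as independent. Both classes of a fit shared the estimate of spread. The edgeR p-values between conditions therefore do not measure the spread between animals in NK-gated cells alone.

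The gate, the gene lists and the comparisons were chosen with earlier results of these data known. Named genes were the gate genes, up to 4 members per list by size among those past the threshold, the 8 widest rises and falls where the log2 CPM averaged 4 or more, and the genes of the label, sort and antibodies. Others (such as Il7r, Cxcl10 and Mcm5 between conditions, and the genes followed by number of gate genes) were named after their values were seen.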

Additional observations from a re-analysis of the deposited data

Results flagged for a closer look

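The interaction term, which compares the immunization effect in NK-gated and other kept cells, picked out 7 genes (edgeR, adjusted p of at most 0.05). The difference of the log2 fold changes was 4.28 ± 0.51 (SE) for Styk1, 3.76 ± 0.47 for Samd3, 3.24 ± 0.42 for Ctla2a, 3.12 ± 0.42 for Xcl1, 2.87 ± 0.34 for Fasl, 2.81 ± 0.30 for Eomes and 2.12 ± 0.23 for Il18rap. Adjusted p-values ran from 0.020 to 0.047. By mouse, Styk1 had 19, 6, 5 and 5 UMIs in the other cells, Samd3 56, 12, 14 and 8, and Eomes 59, 11, 15 and 31. Fasl had 34, 7, 16 and 25. These genes were near 0 there and passed the filter on low counts through the NK-gated libraries. Their differences rest on few counts in the other cells. Ctla2a had 590, 92, 239 and 198 UMIs in the other cells, Xcl1 518, 63, 76 and 89, and Il18rap 476, 80, 194 and 274. No support for a differing response is drawn from any of the 7. In the other cells all 7 were lower in both immunized mice, and in NK-gated cells none of the 7 passed between the conditions. Leaving out either unimmunized mouse left 0 genes called, leaving out immunized mouse 1 or 2 gave 197 and 75, and the mouse as a block gave 364.

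Against Cd3-positive cells the same term picked out 7 others. The difference was 2.69 ± 0.39 for Camk2n1, -1.28 ± 0.22 for Cst3, -1.48 ± 0.27 for Gimap3, -1.67 ± 0.30 for Cd28, -2.08 ± 0.35 for Gzmb, -2.94 ± 0.42 for Inpp4b and -3.81 ± 0.67 for Fscn1, with adjusted p-values from 0.010 to 0.045. None of these 7 passed between the conditions in NK-gated cells.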

How the results depend on the processing

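Between immunized and unimmunized NK-gated cells the count of 0 called genes became 63 without a filter on low counts, and 0 to 41 when 1 mouse was left out (41 without immunized replicate 1). Against all other cells the count of 2907 became 1789 in capture 2 alone, and 895 to 2844 with 1 mouse left out, lowest without unimmunized replicate 1 (1388 without unimmunized replicate 2). Against Cd3-positive cells the 1469 genes became 978 in capture 1, 812 in capture 2, 811 with DESeq2, and 734 to 1490 with 1 mouse left out (734 without unimmunized replicate 1, 891 without immunized replicate 1). The 7 genes of the interaction became 11 with at most 10% mitochondrial UMIs, 3 with hashtags of at least 90% and 20 counts, 1 and 4 in captures 1 and 2, 357 without a filter, 88 with DESeq2, 364 with the mouse as a replicate block, 12 without cells of 20 or more myeloid UMIs (chosen after seeing the data), and 0 to 197 with 1 mouse left out (197 and 75 without immunized replicate 1 and 2). The 7 genes of the interaction against Cd3-positive cells, a result added after seeing the data, became 22 and 14 with at least 4 and 5 gate genes, 3 with at most 10% mitochondrial UMIs, 0 in capture 1, 29 without cells of 20 or more myeloid UMIs, 90 without a filter, 3 with DESeq2, 48 with the replicate block, and 0 to 43 with 1 mouse left out (0 and 1 without unimmunized replicate 1 and 2, 43 and 17 without immunized replicate 1 and 2). The block gave 3451 and 1548 genes in the comparisons between classes. No paired analysis was possible between conditions because each mouse had 1 condition. The cause was not tested.

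The difference in share between immunized and unimmunized mice was -5.48 percentage points and turned to 7.26 over NK-gated plus Cd3-positive cells, and to 0.0263 when NK-gated cells with 3 or more UMIs of 7 myeloid genes were left out. That limit left 7 cells, too few for a fit or an antibody value, which were not run. With 1 mouse left out it was -6.75 to -4.21. The CD169 antibody difference between NK-gated and other cells kept its direction under every alternative run. Of the named genes, Gzmm and Tcrg-C4 against all other cells ran from -0.86 to 3.63 and from -2.91 to 2.19 with 1 mouse left out, negative without immunized replicate 1, and Klra4 between conditions to -0.14 in capture 1. Requiring at least 5 gate genes (chosen after seeing the data) gave 0, 2692, 1530 and 6 genes in the 4 comparisons. Depth limits genes of few UMIs in the libraries of 29 and 36 cells.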

Other observations

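The 83 cells that passed the 3-gene threshold but held a Cd3 UMI were outside the gate and counted among the other kept cells. They came from unimmunized mouse 1 (49), unimmunized mouse 2 (10), immunized mouse 1 (15) and immunized mouse 2 (9). Their summed level was 208 CPM for Trac, 87.1 CPM for Eomes, 612 CPM for Il7r and 280 CPM for Cxcr6, against 3.48, 135, 321 and 73.0 CPM in the 420 NK-gated cells. Klra8 was at 38.5 CPM against 197 CPM, and Lyz2 at 3575 CPM against 2980 CPM. In these cells Eomes had a UMI in 34.9% and Il7r in 59.0%.

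Between NK-gated and other kept cells, type I interferon response genes were lower for 13 of 19 tested and higher for none, with a median log2 fold change of -1.25. Ifi27l2a was at 268, 467, 334 and 329 CPM in NK-gated cells against 1083, 2103, 1850 and 1500 CPM (-2.40 ± 0.26, edgeR adjusted p = 0.00028), and Irf7, a regulator of this response, had a log2 fold change of -1.5. Over all genes tested 15.1% were lower. Against Cd3-positive cells 3 of 19 were lower and none higher, against 8.77% and 8.4% of all genes. Counted in either direction, 17.2% of all genes were called, a share near that of the list, and no result about the list is read there. Cell division genes were higher than in other cells for 5 of 21 tested and lower for none, against 11.7% and 15.1% of all genes. In either direction 26.7% of all genes were called, a share near that of the list, so no result about the list is read. Among the 5 were Mcm6 (1.5 ± 0.24) and Hmgb2 (0.57 ± 0.11), the gene of most UMIs in the list.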
